A study of Mus musculus with 6 samples.

Results

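The genes described here are 10 antioxidant enzymes and regulators of the mouse pancreatic islet: Sod1, Sod2, Cat, Gpx1, Gpx3, Gpx4, Prdx1, Prdx4, Txnip and Txnrd1. They were taken by symbol, as a list chosen with earlier results of these data known, from a deposited table of 40840 rows of raw read counts. All 10 passed the filter on low counts that left 16240 genes to test. The libraries came from islets labelled KO (3 libraries) and WT (3 libraries), both on a C57BL/6J background, in a series on the role of IGF2R in beta cells. The labels give neither sex, age, nor the way the gene was removed, and nothing in them ties a library to an animal of its own. The p-values below therefore rest on the spread from library to library, which could be technical.

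Superoxide, which leaks from respiration and is made by oxidases, is turned into hydrogen peroxide by superoxide dismutases. Hydrogen peroxide is then removed by catalase, by selenium-dependent glutathione peroxidases and by peroxiredoxins, which are recharged through thioredoxin and thioredoxin reductase. Pancreatic beta cells are known for low activity of the peroxide-removing enzymes, catalase and glutathione peroxidase above all, beside most other tissues. They are also known for strong induction by glucose of Txnip, whose product binds and inhibits thioredoxin.

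Total counts ranged from 16689319 to 18956235 in KO libraries and from 16943764 to 18757633 in WT libraries. Igf2r, the targeted gene, was at 49.3, 48.1 and 48.4 CPM (read counts scaled to library size after TMM normalisation) in KO libraries 1 to 3 and at 95, 127.8 and 115.3 CPM in WT libraries 1 to 3, and it passed the test (log2 fold change -1.21, SE 0.0946, edgeR quasi-likelihood adjusted p 0.00261). Markers of beta cells were abundant in every library, with 143702 to 164681 CPM summed over 10 markers in KO and 131403 to 150942 CPM in WT. Most of that sum was Ins2, at a mean of 113052 CPM in KO and 90069 CPM in WT. In all of the marker lists, acinar included, edgeR called 0 markers, and the lists differed in direction. Positive log2 fold changes were found for 7 of 10 beta cell markers (median 0.14, Ins2 0.33 and Ins1 -0.53), 4 of 8 markers of other endocrine cells (median -0.0020, Gcg -0.03 and Ppy 0.60), 9 of 9 endothelial markers (median 0.07, Kdr 0.06 and Plvap 0.07), 8 of 10 macrophage markers (median 0.16, Cd74 0.22 and H2-Ab1 0.17) and 5 of 5 tested erythroid markers (median 0.36, Hbb-bs 0.27 and Hba-a1 0.68). Negative ones were found for 6 of 8 tested duct markers (median -0.24, Krt7 -0.04). They were also found for 6 of 10 stellate cell and fibroblast markers (median -0.16, Rgs5 0.08 and Pdgfrb 0.08). An unadjusted edgeR p under 0.05 was found for 11% of all genes tested. It was found for 5 beta cell, 5 macrophage, 1 endothelial and 1 erythroid marker higher in KO. Lower in KO at that p were 20 acinar, 3 duct, 1 beta cell and 1 other endocrine marker. The libraries also differed in transcripts of acinar cells, the enzyme-secreting cells around islets. The 24 acinar markers took 0.106%, 0.273% and 0.0974% of counts in KO libraries 1 to 3, against 1.76%, 1.86% and 0.303% in WT libraries 1 to 3, and 22 of 22 tested had negative log2 fold changes. No acinar marker was at 0 in all libraries, and those with the most CPM were Ctrb1 (330 ± 162 CPM in KO and 2362 ± 1568 CPM in WT, SD, n = 3 each) and Pnlip (213 ± 157 CPM in KO and 1942 ± 1303 CPM in WT). WT library 3 thus lay near the highest KO library, apart from the other two of its genotype. Fewer cells of a type and less RNA per cell cannot be told apart in such bulk libraries.

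None of the 10 antioxidant genes differed between KO and WT islets past the threshold of an adjusted p of 0.05. Of all genes tested, 0.0123% (2 of 16240) passed. At an unadjusted p under 0.05, edgeR had 2 antioxidant genes higher in KO (Sod1 and Gpx1) and 1 lower (Cat). Such a p was found for 11% of all genes tested, 5.19% being higher and 5.8% lower in KO. limma-voom had 1 of the 10 at an unadjusted p under 0.05 and called 0. DESeq2 had 0 at that p and called 0 of the 4 to which it gave an adjusted p. The log2 fold changes ran from -0.31 to 0.14 with a median of 0.03, beside a median near zero, 5.3e-05, over all genes tested. Cat was the only 1 of the 10 whose KO and WT libraries did not overlap, as held for 15.7% of all genes. Together the 10 genes held 0.199 ± 0.0112% of counts in KO and 0.197 ± 0.0160% in WT (SD, n = 3 each).

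**Figure D1:**
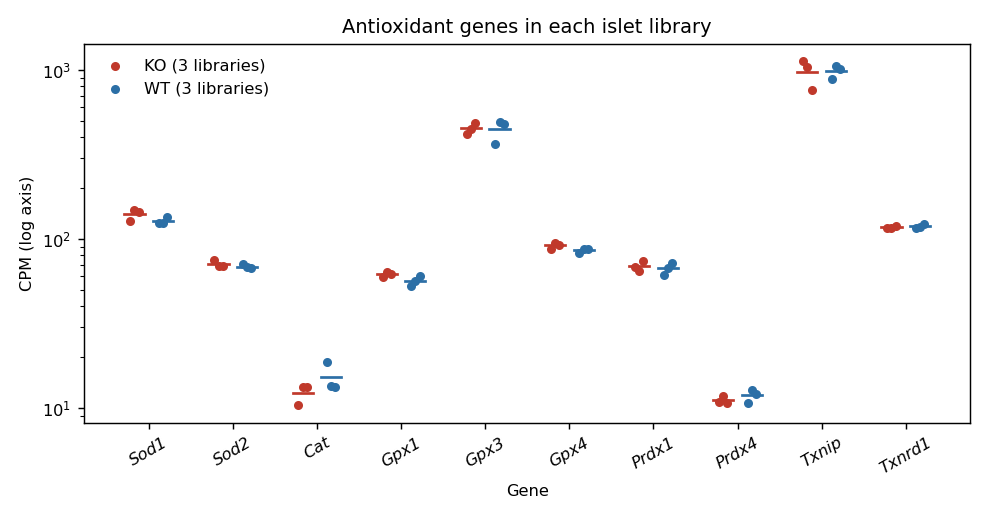
Normalised level (CPM, log axis) of each antioxidant gene in the 3 KO libraries (left, red) and the 3 WT libraries (right, blue), with a bar at each group mean. The ranges of the groups overlap for every gene but Cat, whose highest KO value, 13.2 CPM, lies just under the lowest WT value, 13.4 CPM.

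Levels were compared between genes as CPM per kilobase of the union of annotated exons (GENCODE M21, GRCm38, the same assembly as the mm10 build of the submitters' processing notes). On that scale Txnip was highest, at 312 ± 60.1 in KO and 313 ± 29.0 in WT (SD, n = 3 each), followed by Gpx3 at 248 ± 18.9 in KO and 245 ± 38.2 in WT. The ranges of these 2 genes over the 6 libraries overlapped, so their order is not fixed. Gpx4 (53.0 ± 2.27 in KO and 49.7 ± 1.52 in WT), Gpx1 (42.8 ± 1.59 and 39.1 ± 2.75 in KO and WT), Sod1 (35.2 ± 2.84 and 32.1 ± 1.71), Prdx1 (22.6 ± 1.68 and 22.0 ± 1.86) and Txnrd1 (16.5 ± 0.323 and 16.74 ± 0.466) came next, again in CPM per kilobase. In that order Gpx1 and Sod1 overlapped in range and the other neighbours did not. The lowest levels were those of the mitochondrial dismutase gene Sod2 (7.08 ± 0.320 in KO and 6.85 ± 0.211 in WT), of Prdx4 (5.27 ± 0.291 and 5.62 ± 0.515) and of the catalase gene Cat (4.70 ± 0.636 and 5.79 ± 1.14). The range of Cat over the 6 libraries, 3.96 to 7.11, overlapped those of both Prdx4 and Sod2. The order depends on the length used. The exon union of Sod1 spans 3970 bases, which includes a long alternative transcript, whereas its principal transcript has 641 bases. With principal transcript lengths, a choice made after seeing the data, Sod1 had 218 ± 17.6 CPM per kilobase in KO and 199 ± 10.6 in WT, the third place after Txnip and Gpx3, and Cat stayed last.

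The 2 superoxide dismutase genes come first in the pathway. Sod1 encodes the copper-zinc enzyme of the cytosol and lies on chromosome 16 (GRCm38, 90220754 to 90226329, plus strand). It stood at 127, 148 and 144 CPM in KO libraries 1 to 3, against 123, 123 and 135 CPM in WT libraries 1 to 3. The group means were 140 ± 11.3 CPM in KO and 127 ± 6.80 CPM in WT (SD, n = 3 each), and KO library 1 lay below WT library 3, so the groups overlapped. The fitted log2 fold change of 0.14 (SE 0.0629) had a 95% interval of 0.0053 to 0.27 and an edgeR adjusted p of 0.439. The value was 0.08 with the acinar marker level as a covariate and 0.05 where WT library 3 was the only control. With single libraries left out it ran from 0.093 to 0.202. Every KO library had a lower acinar level than every WT library, so a fit to 6 libraries cannot separate genotype well from that level. Over the 6 libraries the r of Sod1 with that level was -0.62, with the summed macrophage markers 0.84, with the erythroid markers 0.74 and with the beta cell markers 0.60. The part of these other transcripts in the Sod1 values was not tested, and each r spans both genotypes, so it takes in any difference between KO and WT. Some Sod1 reads cannot be placed with certainty, since 23.1% of the 50-base windows of its coding transcripts also occur in a processed pseudogene, Gm8566, and how the counting treated reads with several matches is not stated.

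Sod2, the manganese enzyme of mitochondria, lies on chromosome 17 (13006846 to 13040063, plus strand), 237 kb from Igf2r. It was at 74.5, 69.4 and 68.6 CPM in KO libraries 1 to 3 and at 70.9, 67.9 and 66.9 CPM in WT libraries 1 to 3. KO library 1 lay above every WT library, WT libraries 2 and 3 lay below every KO library, and the groups overlapped between 68.6 and 70.9 CPM. The fitted log2 fold change was 0.05 (SE 0.0572), at an adjusted p of 0.798 in edgeR, with a 95% interval from a 0.951-fold to a 1.12-fold level in KO. Without KO library 1 the value was 0.0096. The ratio of Sod2 to Sod1 counts, which no library scaling can change, was 0.587, 0.468 and 0.475 in KO libraries 1 to 3 and 0.576, 0.550 and 0.495 in WT libraries 1 to 3. The means of 0.510 ± 0.0664 in KO and 0.540 ± 0.0412 in WT (SD, n = 3) did not differ past the test (exact two-sided permutation p 0.6). With 3 against 3 libraries this test cannot give a p under 0.1. The 2 other genes of superoxide removal, the secreted enzyme gene Sod3 (log2 fold change 0.09, 4.13 CPM in KO and 3.87 CPM in WT) and the copper chaperone gene Ccs (-0.03, 13.8 CPM in KO and 14.0 CPM in WT), were also not called.

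Cat encodes catalase, the peroxisomal enzyme that splits hydrogen peroxide, and lies on chromosome 2 (103453849 to 103485160, minus strand). Single libraries held 195, 231 and 225 Cat counts in KO and 350, 226 and 243 counts in WT, in the order of library number. Scaled, these were 10.4, 13.2 and 13.2 CPM in KO and 18.6, 13.5 and 13.4 CPM in WT. KO library 1 was low and WT library 1 was high, while the other 4 libraries lay between 13.2 and 13.5 CPM. The gap between the groups was 0.123 CPM, less than the counting error, which at these counts has an SD of 5.35% to 7.16% of the value. The means were 12.3 ± 1.66 CPM in KO and 15.1 ± 2.98 CPM in WT (SD, n = 3 each), and the log2 fold change was -0.31 (SE 0.136), with an adjusted p of 0.435 in edgeR. Without WT library 1 the log2 fold change was -0.13, and without KO library 1 it was -0.20. Over the 6 libraries the Pearson r of Cat with the mean log2 level of the acinar markers was 0.70, a description over libraries that share their scaling. Its r with the summed beta cell markers was -0.73, with the erythroid markers -0.61 and with the macrophage markers -0.44. The part of these in the Cat values was not tested, and each r spans both genotypes, so it takes in any difference between KO and WT. With that acinar level as a covariate the Cat log2 fold change was -0.04, and against WT library 3 alone it was -0.13. The covariate fit cannot separate acinar level from genotype well, since every KO library had a lower acinar level than every WT library. Cat was also the most variable of the 10 genes. The tested genes of at least 5 log2 CPM whose profiles were most like it, of 6074 compared over 6 libraries, were Svil (r 0.97), Mmaa (0.97) and 4931406C07Rik (0.95).

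Of the glutathione peroxidases, all selenoproteins in the mouse for the 3 measured here, Gpx3 had the highest level per kilobase. It encodes the secreted enzyme best known from plasma and lies on chromosome 11 (54902453 to 54910377, plus strand). It was at 418, 446 and 486 CPM in KO libraries 1 to 3 and at 365, 493 and 476 CPM in WT libraries 1 to 3. WT library 1 was the lowest of all and the groups overlapped throughout, and the fitted log2 fold change of 0.02 (SE 0.114) had an adjusted p of 0.969 in edgeR. Its sign was negative without WT library 1 (-0.11) and with the acinar covariate (-0.11). Its within-group SD of 0.18 on the log2 scale was larger than that of 96.9% of the 508 genes within 1 log2 CPM of its level.

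Gpx1, the cytosolic and mitochondrial glutathione peroxidase gene on chromosome 9 (108338903 to 108340343, plus strand), was at 59.5, 64.1 and 61.6 CPM in KO libraries 1 to 3. In WT libraries 1 to 3 it was at 52.3, 56.4 and 60.2 CPM. WT library 3 alone reached the KO range. The means of 61.7 ± 2.29 CPM in KO and 56.3 ± 3.96 CPM in WT (SD, n = 3 each) gave a fitted log2 fold change of 0.13 (SE 0.0634) with a 95% interval of 0.0011 to 0.26 and an edgeR adjusted p of 0.454. Against WT library 3 alone it was 0.03, and with the acinar covariate, which cannot be separated well from genotype, 0.05. With single libraries left out it ran from 0.082 to 0.187. The r of Gpx1 over the 6 libraries was -0.76 with the acinar level. It was 0.89 with the summed erythroid markers, which were at 12.2 to 15.9 CPM in KO and 8.60 to 14.7 CPM in WT with 5 of 5 tested members of positive log2 fold change. With the summed macrophage markers (541 to 575 CPM in KO and 455 to 526 CPM in WT, 8 of 10 with positive values) the r was 0.81, and with the summed beta cell markers it was 0.86. The part of the beta cell, erythroid and macrophage transcripts in the Gpx1 values was not tested. Each r spans both genotypes and so takes in any difference between KO and WT. The ratio of Gpx1 to Cat counts was 5.74, 4.84 and 4.65 in KO libraries 1 to 3, above the 2.81, 4.19 and 4.50 of WT libraries 1 to 3. Its means were 5.08 ± 0.582 in KO and 3.84 ± 0.898 in WT (SD, n = 3). The exact permutation test gave p 0.1 (two-sided), its lowest possible value here, and 0.4 after adjustment over the 4 ratios tested. The log2 difference of 0.43 was 0.22 without WT library 1 and 0.17 with WT library 3 as the only control. Without WT library 1 the exact permutation p was 0.2, from a test that cannot reach 0.05 with so few libraries.

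**Figure D2:**
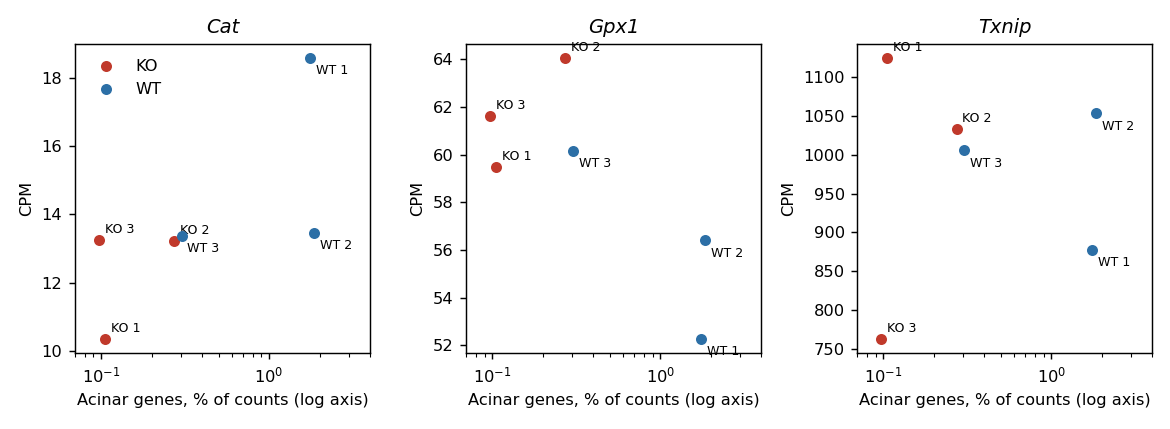
Levels of Cat, Gpx1 and Txnip (CPM) in each library against the share of counts taken by 24 acinar markers (log axis), KO in red and WT in blue. Cat is highest in WT library 1 and lowest in KO library 1, Gpx1 is lowest in the 2 WT libraries with the most acinar transcripts, and Txnip is lowest in KO library 3.

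Gpx4 encodes the peroxidase that reduces lipid hydroperoxides in membranes and guards against ferroptosis, on chromosome 10 (80047166 to 80056439, plus strand). Its values were 87.1, 94.9 and 91.9 CPM in KO libraries 1 to 3 and 82.7, 87.6 and 86.7 CPM in WT libraries 1 to 3. KO library 1 lay within the WT range, and the fitted log2 fold change of 0.09 (SE 0.0546), at an adjusted p of 0.548 in edgeR, had a 95% interval from a 0.985-fold to a 1.15-fold level in KO. The level itself is uncertain, since 51.4% of the 50-base windows of its coding transcripts are shared with pseudogenes, Gpx4-ps2 above all. Sod1, Gpx1 and Gpx4 varied together over the 6 libraries, with r of 0.87 between Sod1 and Gpx1, 0.88 between Sod1 and Gpx4 and 0.90 between Gpx1 and Gpx4, as a description over libraries that share their scaling. These were picked after the values were seen, as the highest r among all pairs of the 10 genes. Each r spans both genotypes, so it takes in any difference between KO and WT.

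Of the 3 other glutathione peroxidase genes tested, 1 had a positive log2 fold change and 0 were called by edgeR. At an unadjusted p under 0.05 was 1 (Gpx2), beside 11% of all genes tested. Gpx2, known from the gut epithelium, had 9.08 ± 0.633 CPM in KO and 6.76 ± 0.254 CPM in WT (SD, n = 3 each), every KO library lying above every WT library, as held for 8.02% of all genes tested. Its log2 fold change of 0.43 (SE 0.119) was not called (edgeR adjusted p 0.27). Gpx8, of the endoplasmic reticulum, was at 1.79 CPM in KO and 2.07 CPM in WT.

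Peroxiredoxins use a cysteine in place of selenium. Prdx1, of the cytosol, lies on chromosome 4 (116685544 to 116700822, plus strand) and is a known target of NRF2 (gene Nfe2l2), the transcription factor of the oxidative stress response, which binds antioxidant response elements. Thioredoxin reductase 1 (Txnrd1, chromosome 10, 82833951 to 82897712, plus strand) is another. Upstream sequences of the antioxidant genes, the 250 bases before a RefSeq start on GRCm38.p6, were searched on both strands for TGACNNNGC, the core of that element. It was found for 3 of the 10 genes, Prdx1, Txnrd1 and Sod1, in 3 of their 15 windows, and in 10.2% of all 32851 windows of that length. The 3 windows are shown because they let the reader see the element beside genes whose levels are given here, 5′ to 3′ on the strand of the gene, with the match in capitals (all 3 on the opposite strand). A match is a description of letters and not a bound site.
Prdx1, chr4:116685349-116685598, plus strand: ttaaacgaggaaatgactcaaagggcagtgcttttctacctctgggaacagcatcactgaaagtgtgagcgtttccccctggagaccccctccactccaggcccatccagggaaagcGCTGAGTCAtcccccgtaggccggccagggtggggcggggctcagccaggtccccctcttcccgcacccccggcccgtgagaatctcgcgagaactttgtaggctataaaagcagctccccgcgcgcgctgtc
Txnrd1, chr10:82858956-82859205, plus strand: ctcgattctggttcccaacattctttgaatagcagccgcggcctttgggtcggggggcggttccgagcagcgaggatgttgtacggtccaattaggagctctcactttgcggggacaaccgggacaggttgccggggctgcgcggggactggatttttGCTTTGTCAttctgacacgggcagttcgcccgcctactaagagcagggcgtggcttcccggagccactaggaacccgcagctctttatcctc
Sod1, chr16:90220512-90220761, plus strand: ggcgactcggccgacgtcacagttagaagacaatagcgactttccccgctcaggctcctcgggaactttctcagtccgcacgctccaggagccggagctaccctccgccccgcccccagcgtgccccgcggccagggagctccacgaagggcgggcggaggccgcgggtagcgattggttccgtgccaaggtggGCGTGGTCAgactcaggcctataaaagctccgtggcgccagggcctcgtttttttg
The matches begin 133, 92 and 56 bases before the start of Prdx1, Txnrd1 and Sod1. The Txnrd1 window is 1 of 3 for that gene, and the other two hold no match.

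The levels of Prdx1 were 68.1, 64.2 and 74.3 CPM in KO libraries 1 to 3 and 61.1, 66.8 and 72.4 CPM in WT libraries 1 to 3, and the fitted log2 fold change of 0.04 (SE 0.0685) had an adjusted p of 0.851 in edgeR. With the acinar covariate it was -0.17. The groups overlapped over most of their range. Prdx4, the peroxiredoxin of the endoplasmic reticulum on the X chromosome (155323918 to 155340754, minus strand), uses peroxide to drive disulfide formation in new proteins. It was at 10.8, 11.8 and 10.7 CPM in KO libraries 1 to 3 and at 10.7, 12.8 and 12.05 CPM in WT libraries 1 to 3, and the fitted log2 fold change of -0.09 (SE 0.106) had an adjusted p of 0.781 in edgeR. It was -0.16 without WT library 1 and -0.03 without WT library 2. At 181 to 219 counts per library the counting error was 6.76% to 7.43% of the value, and the lowest value of each genotype was nearly the same. The ratio of Prdx4 to Prdx1 counts was 0.162 ± 0.0203 in KO and 0.177 ± 0.0129 in WT (SD, n = 3). Its exact two-sided permutation test gave p 0.4, and that test cannot give a p under 0.1 here. Of the 5 other genes of this group, 3 had positive log2 fold changes, and 0 were called by edgeR. At an unadjusted p under 0.05 was 1, beside 11% of all genes tested. Prdx6, the peroxiredoxin that uses glutathione, had the smallest p (0.0363, edgeR unadjusted) with 103 ± 2.50 CPM in KO and 95.2 ± 3.28 CPM in WT (SD, n = 3 each), and Prdx2, the cytosolic enzyme abundant in red cells, was at 64.8 and 59.5 CPM in KO and WT.

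Txnrd1, which returns oxidised thioredoxin to its reduced form at the expense of NADPH, was the steadiest of the 10 genes. Its values were 116, 115 and 120 CPM in KO libraries 1 to 3 and 116, 118 and 122 CPM in WT libraries 1 to 3. The highest of the 6 libraries was 1.06 times the lowest. Its within-group SD of 0.035 on the log2 scale was above that of only 8.06% of the 3190 genes within 1 log2 CPM of its level. The fitted log2 fold change of -0.02 (SE 0.0517) had an adjusted p of 0.922 in edgeR, with a 95% interval from a 0.915-fold to a 1.06-fold level in KO.

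Txnip encodes thioredoxin-interacting protein, an arrestin-related inhibitor of thioredoxin that glucose induces through ChREBP (gene Mlxipl) and its relative MondoA (gene Mlxip). The gene lies on chromosome 3 (96557957 to 96561883, plus strand). Its upstream window is shown because this gene had the highest level per kilobase of the 10 and the widest fold range among the KO libraries. The capitals mark a match to CACGAG, 5 bases of any kind and CACGAG again. These letters were taken from the known carbohydrate response element of this gene. The match starts 85 bases before the RefSeq start and was found in 1 of 32851 windows searched on both strands, so the search only places the element.
Txnip, chr3:96557707-96557956, plus strand: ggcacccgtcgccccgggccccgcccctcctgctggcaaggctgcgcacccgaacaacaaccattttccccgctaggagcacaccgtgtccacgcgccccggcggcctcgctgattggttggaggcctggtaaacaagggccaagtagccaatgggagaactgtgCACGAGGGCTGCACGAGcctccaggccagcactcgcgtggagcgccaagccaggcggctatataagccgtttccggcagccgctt
The single libraries held 1124, 1032 and 763 CPM of Txnip in KO libraries 1 to 3 and 878, 1053 and 1006 CPM in WT libraries 1 to 3. KO library 1 was the highest and KO library 3 the lowest of all 6, a 1.47-fold range within KO against a 1.2-fold range within WT. The means were 973 ± 188 CPM in KO and 979 ± 90.5 CPM in WT (SD, n = 3 each). The fitted log2 fold change of -0.0083 (SE 0.174) had an adjusted p of 0.99 in edgeR, and its 95% interval reached from a 0.722-fold to a 1.37-fold level in KO, so that smaller differences were not detectable with these libraries. Leaving out KO library 3 gave 0.14 on the log2 scale, at an adjusted p of 0.631 in edgeR. The counting error of Txnip was at most 0.878% of the value, far below this spread. An antisense gene, Gm15441, shares 606 exonic bases with Txnip. It had 60 to 65 counts in KO and 64 to 123 in WT, against 12965 to 21166 Txnip counts, and whether counting used the strand is not given in the sources used here.

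**Figure D3:**
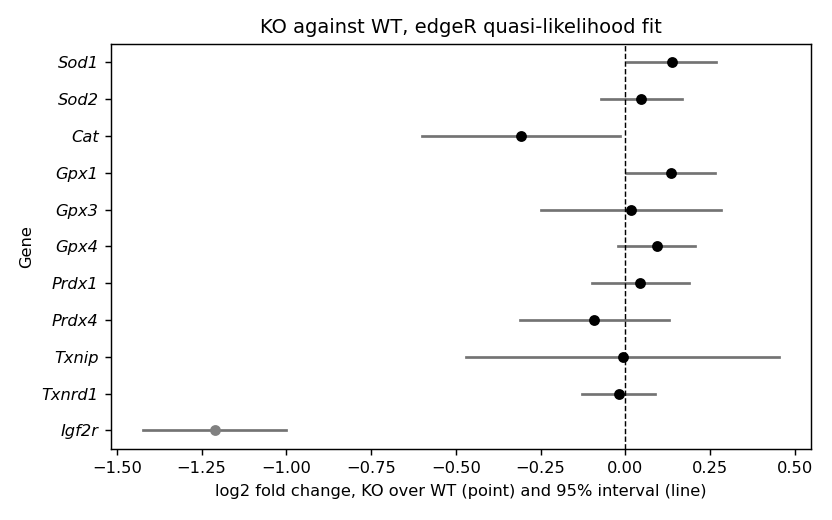
Log2 fold change of KO over WT (points) with its 95% interval (lines) for the 10 antioxidant genes and Igf2r, from the edgeR fit over 16240 genes. The intervals of Txnip and Cat are the widest, that of Txnrd1 is the narrowest, and Igf2r at -1.21 lies far to the left of all 10.

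Txn1, the gene of cytosolic thioredoxin itself, was at 17.4, 16.2 and 19.9 CPM in KO libraries 1 to 3 and at 15.5, 19.1 and 18.8 CPM in WT libraries 1 to 3, a log2 fold change of 0.00025. The ratio of Txnip to Txn1 counts was 64.7, 63.7 and 38.4 in KO libraries 1 to 3 and 56.5, 55.1 and 53.5 in WT libraries 1 to 3. KO library 3 was low, the other KO libraries were above all WT libraries, and the means of 55.6 ± 14.9 in KO and 55.0 ± 1.51 in WT (SD, n = 3) did not differ past the test (exact two-sided permutation p 1). That test cannot give a p under 0.1 here. Of the 14 genes of the thioredoxin and glutaredoxin list, 9 had positive log2 fold changes and 0 were called by edgeR. At an unadjusted p under 0.05 was 1, beside 11% of all genes tested. That one was Msrb2, the mitochondrial methionine sulfoxide reductase gene, with 19.4 ± 0.223 CPM in KO and 15.4 ± 1.60 CPM in WT (SD, n = 3 each, log2 fold change 0.34, edgeR adjusted p 0.27). The members with the most CPM, not corrected for length, were Txnl1 (95.7 CPM in KO and 91.6 CPM in WT) and mitochondrial thioredoxin, Txn2 (62.3 CPM in KO and 59.2 CPM in WT). Their log2 fold changes were 0.06 and 0.07, and that of Glrx5, the mitochondrial glutaredoxin of iron-sulfur cluster assembly, was 0.14.

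Of the 12 tested genes that regulate or resemble Txnip, 7 had positive log2 fold changes and 0 were called by edgeR. At an unadjusted p under 0.05 were 2 (Klf10 and Arrdc3), beside 11% of all genes tested. Mlxipl was at 1720, 1751 and 1665 CPM in KO libraries 1 to 3 and at 1691, 1693 and 1682 CPM in WT libraries 1 to 3, a log2 fold change of 0.02 (SE 0.0466). It was lowest in KO library 3, as Txnip was, within a narrow range. Mlxip was at 104 ± 3.36 CPM in KO and 111 ± 3.40 CPM in WT (SD, n = 3 each, log2 fold change -0.09), with every KO library under every WT library, as held for 7.69% of all genes. The arrestin-related gene Arrdc3 did likewise (62.0 CPM in KO and 68.3 CPM in WT, log2 fold change -0.14, edgeR adjusted p 0.406), and the growth factor response gene Klf10 had a log2 fold change of 0.18 (edgeR adjusted p 0.389). Arrdc4, a relative of Txnip under the same glucose-responsive factors, named here after its values were seen, was at 28.3, 26.4 and 25.0 CPM in KO libraries 1 to 3 and at 26, 25.9 and 30.9 CPM in WT libraries 1 to 3. Its r with Txnip over the 6 libraries was 0.53, beside -0.55 for Arrdc1, -0.40 for Arrdc2 and -0.07 for Arrdc3. Arrdc1 and Arrdc2, also arrestin-related, are likewise named after their values were seen.

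Other parts of the antioxidant system were described by lists that also held 0 genes called by edgeR. Over all 13 lists, 132 of 141 genes were tested, 74 had positive and 58 negative log2 fold changes, and the median was 0.02. At an unadjusted p under 0.05 there were 18 of them (12 higher and 6 lower in KO). Such a p was found for 11% of all genes tested.

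Glutathione synthesis and reduction had 7 of 11 genes with positive values and a median log2 fold change of 0.04. Slc3a2, the heavy chain of the cystine and glutamate exchanger and of other amino acid transporters, had the most CPM of the list (220 ± 15.1 CPM in KO and 195 ± 12.97 CPM in WT, SD, n = 3 each, log2 fold change 0.17, edgeR adjusted p 0.371). Gclm, the modifier subunit of the rate-limiting ligase, was at 59.9 and 61.2 CPM in KO and WT, and Oplah, which recycles 5-oxoproline, at 6.90 and 5.44 CPM. Ggt1, the cell-surface enzyme that breaks down glutathione, had the largest negative value of the lists (-2.40, 1.85 ± 0.462 CPM in KO and 9.77 ± 6.76 CPM in WT, SD, n = 3 each, edgeR adjusted p 0.442) and was called without WT library 3. It is named here after its values were seen. Its level was highest in WT libraries 1 and 2 (10.9 and 15.9 CPM, against 2.53 CPM in WT library 3), which had the most acinar transcripts, whose part in this value was not tested.

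NRF2 regulators and targets had 16 of 23 genes with positive values, a median log2 fold change of 0.09 and 5 genes whose KO libraries all lay above the WT libraries, as held for 8.02% of all genes tested. Ftl1, the ferritin light chain, was at 716 ± 43.7 CPM in KO and 636 ± 50.4 CPM in WT (SD, n = 3 each, log2 fold change 0.17, edgeR adjusted p 0.355). Nfe2l1, an NRF2 relative that controls proteasome genes, was at 545 and 505 CPM in KO and WT, and Mafg, a small MAF partner of NRF2, at 151 and 136 CPM.

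The enzymes that make and use selenium showed no common direction. Selenop, the selenium transport protein, was at 544 ± 46.9 CPM in KO and 592 ± 31.0 CPM in WT (SD, n = 3 each, log2 fold change -0.12, edgeR adjusted p 0.5), Sepsecs, which makes selenocysteine on its transfer RNA, at 193 and 181 CPM in KO and WT, and Secisbp2l at 56.6 and 61.3 CPM. Of 10 such genes 4 had positive values. Among 11 other selenoprotein genes 7 did, with Selenow (log2 fold change 0.15), Selenot of the endoplasmic reticulum (0.09), Selenof (0.02) and Selenoi (-0.12) named.

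NADPH, the source of reducing power for both systems, is supplied by 13 listed genes, of which 7 had positive values. Taldo1 (55.1 ± 4.13 CPM in KO and 49.1 ± 0.702 CPM in WT, SD, n = 3 each) and Tkt (103 and 97.3 CPM in KO and WT), both of the pentose phosphate pathway, had every KO library above every WT library, as did 3 of the 13 and 8.02% of all genes tested, and log2 fold changes of 0.17 and 0.09. The mitochondrial enzyme gene Idh2 was at 205 and 194 CPM in KO and WT. Nnt, the mitochondrial NADPH-forming transhydrogenase whose gene is known to carry a deletion in C57BL/6J mice, was at 27.2 ± 0.326 CPM in KO and 28.2 ± 0.917 CPM in WT (SD, n = 3 each), a log2 fold change of -0.05 (SE 0.0716).

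Oxidative folding in the endoplasmic reticulum, which makes peroxide, had 2 of 11 genes with positive values and a median log2 fold change of -0.07. Ero1b, the oxidase of the pancreatic islet, was at 1179 ± 64.7 CPM in KO and 1153 ± 27.0 CPM in WT (SD, n = 3 each), and Pdia3 at 905 and 940 CPM in KO and WT. Erp44, which retains the oxidase in the early secretory pathway, had a log2 fold change of -0.19 and Qsox1, a secreted sulfhydryl oxidase, of 0.14 (edgeR adjusted p 0.37 and 0.351). Of 13 tested genes of superoxide and peroxide sources, 7 had positive values. Rac2, a subunit activator of the phagocyte oxidase, had a log2 fold change of -0.53 at 2.99 ± 0.168 CPM in KO and 4.31 ± 1.005 CPM in WT (SD, n = 3 each, edgeR adjusted p 0.337). The monoamine oxidase gene Maob was at 147 and 156 CPM in KO and WT.

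The metallothioneins Mt1 and Mt2, metal-binding proteins that also respond to oxidants, were at 1166 ± 198 CPM and 315 ± 64.9 CPM in KO and at 986 ± 51.9 CPM and 272 ± 25.2 CPM in WT (SD, n = 3 each). Their log2 fold changes of 0.24 and 0.21 were not called (edgeR adjusted p 0.559 and 0.706), though Mt1 was called where no filter on low counts was used. The log2 fold change of Mtf1, their transcription factor gene, was -0.14. Of the 4 genes of that list 3 had positive values.

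**Figure D4:**
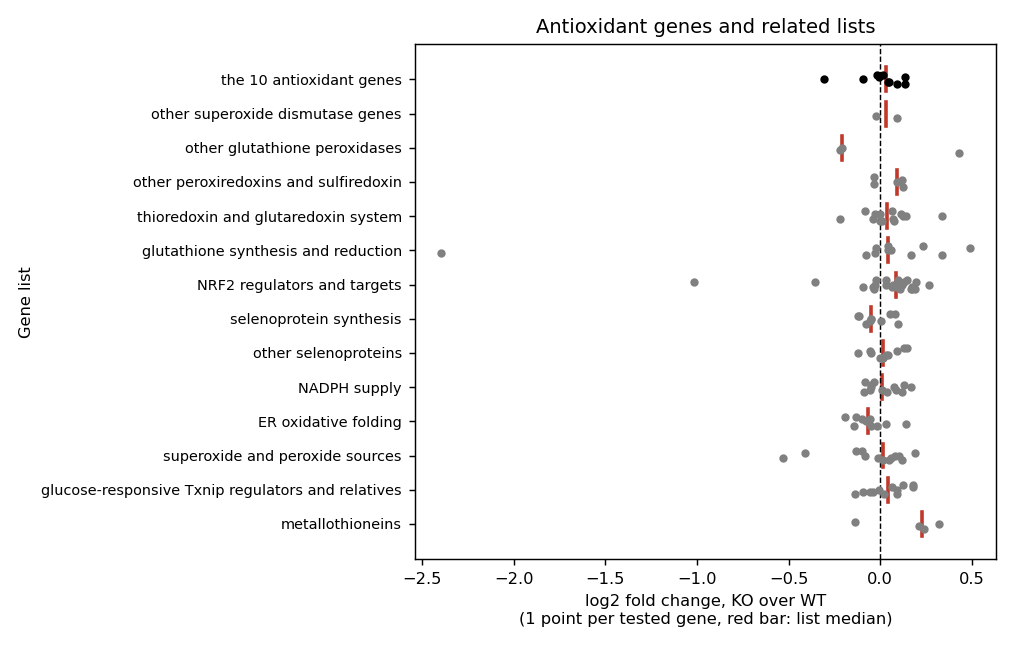
Log2 fold change of KO over WT for the 10 antioxidant genes (top row, black) and for each tested gene of the 13 related lists (grey), with the median of each list as a red bar. Most points lie close to zero, the point at -2.40 is Ggt1, and 0 of the genes drawn passed the test.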

How the data were processed

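RNA was measured in 6 libraries of mouse islets (3 KO, 3 WT). Per the labels' protocols, libraries were strand-specific and made from 500 ng of total RNA. Per the submitters' processing notes, Trimmomatic 0.39, STAR 2.7.10b and featureCounts 2.0.3 were used with mm10. The sources used here give neither annotation nor strand setting nor the treatment of reads with several matches. The authors deposited raw counts per gene symbol. WT columns match the titles by number. KO columns, numbered 1 to 3 where the titles have 4 to 6, were assigned to KO by name and to no single title.

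Genes were filtered with filterByExpr (minimum count 10, total 15), scaled by TMM (factors 0.985 to 1.02) and tested with edgeR 4.0.16 (glmQLFit, robust; glmQLFTest, two-sided) in R 4.3.3, with Benjamini-Hochberg adjustment over 16240 genes. The SE is the size of the log2 fold change divided by the root of F, and 95% intervals use the fit's degrees of freedom. Log2 CPM used a prior count of 2. DESeq2 1.42.0 and limma-voom (limma 3.58.1) were alternatives. Replicate pairs differed by more than sampling noise (lowest chi-square 4.54 for each degree of freedom). Count intervals cover counting error only. Upstream sequences are RefSeq's on GRCm38.p6, and all 10 genes matched. The 10 genes and the related lists were chosen with earlier results of these data known. Named from the lists are called genes, or else the 2 with the smallest p and the 2 with the most CPM, with Igf2r and Nnt, the 2 genes with the most CPM of each cell type marker list, and the 3 genes most like the most variable of the 10. A few genes that this rule names are not reported here. Other genes are named with a remark or to describe a marker or an overlap.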

Additional observations from a re-analysis of the deposited data

How the results depend on the processing

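Across 18 alternatives (3 scalings, 2 filters, 2 tools, no robust estimation, acinar or the 10 most abundant genes left out, an acinar covariate, WT library 3 as the only control, and each library left out), 0 of the 10 antioxidant genes were called (DESeq2 gave an adjusted p to 4 of them), and 167 of 180 log2 fold changes kept their direction. The 13 others were all uncalled, and the largest in size was -0.17, for Prdx1 with the acinar covariate. With the acinar covariate Gpx3 was at -0.11, Prdx1 at -0.17 and Txnip at 0.033, and against WT library 3 alone Gpx3 was at -0.082 and Prdx1 at -0.076 (the lone WT library is assumed to vary as the KO libraries do). Leaving out single libraries gave ranges of -0.11 to 0.098 for Gpx3, -0.017 to 0.11 for Prdx1, -0.12 to 0.14 for Txnip and -0.038 to 0.0045 for Txnrd1. With no change of direction, the ranges were -0.16 to -0.033 for Prdx4, -0.39 to -0.13 for Cat and 0.0096 to 0.073 for Sod2. Likewise with no such change, they were 0.093 to 0.202 for Sod1, 0.082 to 0.187 for Gpx1 and 0.065 to 0.126 for Gpx4. The causes were not tested. The acinar covariate was lower in every KO library than in every WT library, so its fit cannot separate acinar level from genotype well.

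The number of called genes moved most, from 2 of 16240 tested to 272 of 26754 without a filter. It was 73 in DESeq2, which gave an adjusted p to only 1857 genes. It was 1 in limma-voom, 1 without robust estimation and 0 with the acinar covariate. With single libraries left out it ran from 0 to 114 (114 without WT library 3, 24 without KO library 3, 0 without KO library 1 or 2). Of the related lists, 2 genes were called without a filter (Msrb2 and Mt1, higher in KO) and 0 to 2 with single libraries left out (Ggt1 and Gsta3, lower, without WT library 3). The log2 difference of the Sod2 to Sod1 ratio, -0.09, was 0.035 against WT library 3 alone. That of Gpx1 to Cat, 0.43, was 0.17 there and ran from 0.22 (without WT library 1) to 0.56 with single libraries left out. That of Txnip to Txn1, -0.02, was 0.017 against WT library 3 alone and ran from -0.15 to 0.22 (without KO library 3) with single libraries left out. Levels per kilobase moved beyond the spread between libraries for 7 genes with the longest transcript and for 8 with the principal one. No row of the deposited counts is named by the symbol of any of the 10 genes with the pseudogene suffix -ps. Pseudogenes under other names, such as Gm8566 for Sod1 and Gm21399 for Prdx1, were not searched for. Adding pseudogene counts was therefore not tried. No paired analysis was possible because the titles number WT 1 to 3 and KO 4 to 6. Of the 10 genes, Cat and Prdx4 had the lowest counts, at 181 to 350 per library, and so the largest counting error.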
